A study of Ovis aries with 9 samples.

Results

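Histone methyltransferases, demethylases and deacetylases place and remove the marks on histone tails that keep a promoter open or closed. They were examined here in the hypothalamus of Dolang sheep, a breed of Xinjiang, around the first estrus. The genes taken were those whose RefSeq sheep symbol begins with KMT, KDM or HDAC followed by a number, together with EZH1, EZH2, SUV39H1, SUV39H2, SETD2 and NSD1. The rule uses names only, and it found 41 of the 21284 genes that have an mRNA transcript in the deposited table: 14 methyltransferases, 16 demethylases and 11 deacetylases, with 363 annotated transcripts between them. Of these genes, 40 passed the filter on low values (a mean of at least 0.5 FPKM in 1 stage or more), and 39 reached that mean in every stage. SUV39H2 did not pass, and EZH2 passed through prepuberty and postpuberty.

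The study compared untreated ewes at prepuberty (120 to 121 days of age), puberty (130 to 131 days) and postpuberty (150 to 151 days), with 3 ewes per stage and 1 poly-A library of hypothalamic tissue from each ewe. The stages were set by the behaviour of the ewes and by the state of the vulva, and age rises with stage, so stage and age cannot be told apart. Levels are in FPKM, fragments per kilobase of transcript scaled to the mapped fragments of the library, summed over the transcripts of a gene. Since FPKM is per length, levels of different genes are set side by side here, as approximate values. They depend on the annotated transcripts to which reads were given. Within a stage, values below are given in the order of replicates 1, 2 and 3.

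In the textbook account, methylation of lysine 4 of histone H3 (H3K4) by the KMT2 enzymes marks active promoters and enhancers, and methylation of lysine 27 (H3K27) by EZH1 or EZH2, the catalytic subunits of Polycomb repressive complex 2, marks silenced genes. KDM enzymes remove such methyl groups, and HDAC enzymes remove acetyl groups, which usually goes with a more closed chromatin. In female rats, loss of Polycomb proteins from the Kiss1 promoter and gain of the activating H3K4 methylation there are known steps on the way to puberty, which is why the levels of these enzymes around first estrus are of interest.

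The libraries did not all look alike, and this touches each result below. Mapped reads, as listed by the study, ran from 19347227 to 23966519. Puberty 2 stood apart: its FPKM values summed to 599726, against 359588 to 398109 in the other 8 libraries, and 42441 transcripts were above 0, against 67824 to 71787. The summed level of 9 neuron markers was 431 FPKM in Puberty 2, 535 in Postpuberty 1 and 743 in Prepuberty 1, and 1323 to 1958 in the other 6 libraries; of the 9 markers, 9, 8 and 9 were below their median in the other 8 libraries. Puberty 3 stood apart in 4 markers of the choroid plexus, all highest there, with a sum of 7639 FPKM against 9.71 to 730 in the other libraries. Values for puberty without Puberty 2 rest on Puberty 1 and Puberty 3. Of 16 markers of the hypothalamus, 8 were under 1 FPKM in every library, among them SIM1, NKX2-1 and AGRP, and GNRH1 was listed at 0 in all 9. The label of the tissue therefore rests on few of its defining markers in these values. In bulk tissue, fewer cells of a type and less RNA per cell cannot be told apart.

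Deacetylases had the highest summed level of the 3 classes, and HDAC11 the highest level of all 41 genes. Over the 9 libraries, 9 genes had a median of at least 10 FPKM, 13 lay between 5 and 10, 17 between 1 and 5, and 2 (EZH2 and SUV39H2) under 1. In the 8 libraries other than Puberty 2, the 11 deacetylases together gave 116 to 144 FPKM, the 16 demethylases 86.1 to 105 and the 14 methyltransferases 78.6 to 92.0. Without HDAC11 the deacetylase sum was 78.7 to 93.5 FPKM in these libraries, a range that overlaps those of the other classes.

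**Figure D1:**
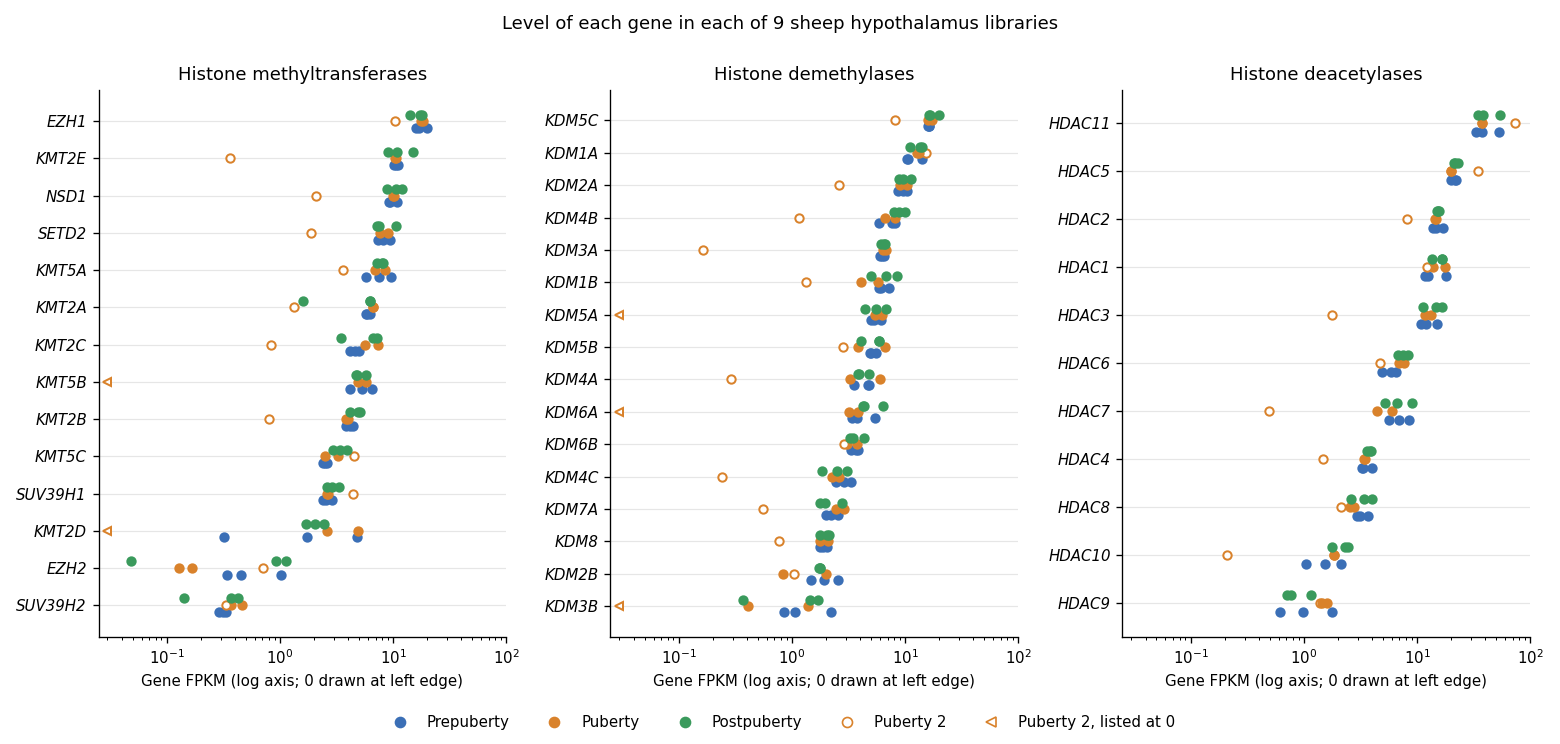
Level of each of the 41 genes (FPKM, log axis) in each of the 9 libraries, coloured by stage, with genes ordered by their median within the 3 classes. The open orange symbols are Puberty 2. Of the 40 genes kept, it lies below the other 8 libraries for 31 (77.5%, beside 52.25% of all genes kept). It lies above them for 5 (12.5%, beside 20.2% of all genes kept). Triangles at the left edge are the 5 genes that it lists at 0.

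HDAC11, the only class IV deacetylase and also an enzyme that removes fatty acyl groups, lies at chr19:58340176-58354246 (ARS-UI_Ramb_v3.0, as all positions here) and has 1 annotated transcript. Its level was 33.3, 53.1 and 37.2 FPKM at prepuberty, 37.5, 73.4 and 37.9 at puberty, and 34.5, 54.2 and 38.4 at postpuberty. It was above every other gene of the group in each library and made up 27.2% to 37.7% of the deacetylase sum in the 8 libraries other than Puberty 2, where its share was 52.3%. The 3 stages overlapped, and replicate 2 was the highest library in each.

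The class IIa deacetylases act mainly as scaffolds that shuttle between nucleus and cytoplasm. HDAC5 (chr11:43654630-43691585) was second, with 21.8, 22.2 and 19.8 FPKM at prepuberty, 19.997, 34.5 and 20.1 at puberty, and 23.2, 21.1 and 21.5 at postpuberty. Apart from Puberty 2, its highest library was 1.17 times its lowest. HDAC4 had 3.26, 3.99 and 3.37 FPKM at prepuberty, 3.46, 1.47 and 3.39 at puberty, and 3.84, 3.93 and 3.59 at postpuberty, so that all postpuberty libraries lay above those of puberty. HDAC7 lay between 4.47 and 8.99 FPKM outside Puberty 2, where it was 0.492. HDAC9 (chr4:27580059-28643386), the lowest deacetylase, had 0.613, 1.78 and 0.977 FPKM at prepuberty, 1.62, 1.38 and 1.43 at puberty, and 1.16, 0.773 and 0.709 at postpuberty.

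Class I deacetylases are the catalytic subunits of the large nuclear corepressor complexes. Outside Puberty 2 the class summed to 41.2 to 49.5 FPKM, against 29.5 to 34.8 for class IIa. HDAC2 (chr8:23733905-23767527) had 14.6, 17.022 and 13.7 FPKM at prepuberty, 14.5, 8.10 and 14.6 at puberty, and 15.4, 15.1 and 15.7 at postpuberty. HDAC1 had 17.9, 11.7 and 12.6, then 13.8, 12.2 and 17.7, then 16.7, 13.6 and 16.5 FPKM. For HDAC2, all postpuberty libraries lay above those of puberty. The range of HDAC1 overlapped that of HDAC2, and which of them was higher changed from library to library. The ratio of HDAC2 to HDAC1 was 0.816 to 1.46 outside Puberty 2. HDAC3, the deacetylase of the NCoR and SMRT corepressors, had 10.7, 15.2 and 11.9 FPKM at prepuberty, 13.4, 1.79 and 11.8 at puberty, and 11.4, 16.8 and 14.6 at postpuberty. In Puberty 2 it was at 14.2% of its median in the other 8 libraries, the lowest of class I. HDAC8 (chrX:64921004-65178685), known as the deacetylase of cohesin, was the lowest of the class, with 3.12, 3.71 and 2.94, then 2.79, 2.14 and 2.54, then 3.39, 3.996 and 2.62 FPKM.

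Of the class IIb enzymes, HDAC6 (chrX:56240975-56259605), which mainly deacetylates tubulin in the cytoplasm, had 6.47, 5.89 and 4.90 FPKM at prepuberty, 6.96, 4.68 and 7.63 at puberty, and 8.30, 6.82 and 7.49 at postpuberty. All 3 postpuberty libraries lay above all 3 prepuberty libraries, and Puberty 2 was the lowest of the 9. HDAC10, a polyamine deacetylase, had 1.04, 2.12 and 1.53, then 1.86, 0.209 and 1.85, then 2.46, 2.30 and 1.78 FPKM, with stages that overlapped.

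Among methyltransferases, EZH1 was the highest and its paralogue EZH2 among the lowest, as is known for tissues whose cells no longer divide. EZH1 (chr11:42491124-42522521) had 16.9, 19.9 and 16.0 FPKM at prepuberty, 18.5, 10.3 and 17.7 at puberty, and 17.9, 17.2 and 14.2 at postpuberty. EZH2 (chr4:113160647-113217372), the form of dividing cells, had 1.03, 0.456 and 0.338, then 0.129, 0.712 and 0.169, then 0.0480, 0.932 and 1.13 FPKM. EZH1 was above EZH2 in each of the 9 libraries, by 12.6 to 372 times. That ratio varied because EZH2 did: among the 8 libraries other than Puberty 2 the highest EZH2 value was 23.5 times the lowest, the widest span of the 41 genes, while for EZH1 it was 1.40 times. Of 6 markers of cycling cells, MKI67 (0.0646 to 0.809 FPKM) and TOP2A (0.0460 to 0.870) were highest in Postpuberty 3 and second highest in Prepuberty 1, the 2 libraries where EZH2 was highest. Of the 6, 4 were highest in Postpuberty 3, CCNB1 in Prepuberty 2 (1.08 FPKM) and PCNA in Postpuberty 1 (14.6), where EZH2 was lowest. The sum of the 6, mostly PCNA and MCM2, lay between 11.3 and 19.95 FPKM. It was 19.6 in both Prepuberty 1 and Postpuberty 1. The part of these markers in the EZH2 levels was not tested.

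The KMT2 family methylates H3K4. KMT2E, a reader-like member with little enzymatic activity, was the highest, at 11.1, 10.6 and 10.3 FPKM at prepuberty, 10.4, 0.359 and 10.6 at puberty, and 15.0, 9.08 and 10.7 at postpuberty. KMT2A (chr15:28851816-28929657), the MLL enzyme, had 5.77, 6.21 and 5.82, then 6.65, 1.34 and 6.59, then 1.60, 6.24 and 6.27 FPKM. It was thus low in 2 libraries, Puberty 2 and Postpuberty 1, and within 5.77 to 6.65 in the other 7. KMT2C (chr4:116204693-116462140), which methylates enhancers, had 5.01, 4.61 and 4.19, then 7.32, 0.835 and 5.68, then 6.71, 3.48 and 7.27 FPKM. KMT2B had 4.45, 3.86 and 4.18, then 3.98, 0.806 and 3.81, then 5.15, 4.17 and 4.93 FPKM, with all postpuberty libraries above those of puberty. KMT2D, the other enhancer enzyme, varied most of the family, with 1.75, 0.324 and 4.77, then 2.59, 0 and 4.91, then 2.05, 1.69 and 2.46 FPKM.

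For the remaining methyltransferases, NSD1, which dimethylates lysine 36 of histone H3 (H3K36), had 9.27, 10.8 and 9.31 FPKM at prepuberty, 10.3, 2.08 and 9.98 at puberty, and 12.1, 10.5 and 8.84 at postpuberty. SETD2, which trimethylates the same lysine, lay between 7.21 and 10.6 FPKM in the 8 libraries other than Puberty 2. SUV39H1, which methylates lysine 9 of histone H3 (H3K9) in heterochromatin, lay between 2.40 and 3.32 in those libraries and was 4.39 in Puberty 2. SUV39H2, its paralogue, had 0.334, 0.315 and 0.289, then 0.371, 0.333 and 0.465, then 0.430, 0.142 and 0.370 FPKM. Of the enzymes for lysine 20 of histone H4 (H4K20), KMT5A lay between 5.75 and 9.54 FPKM outside Puberty 2 and was 3.64 in it. KMT5B lay between 4.19 and 6.498 and was listed at 0 there. KMT5C (chr14:62916078-62923273) had 2.50, 2.38 and 2.62, then 2.52, 4.49 and 3.23, then 3.89, 2.94 and 3.39 FPKM. KMT5C was higher in each postpuberty library than in any prepuberty library.

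The highest demethylase was KDM5C (chrX:51085340-51116257), which removes H3K4 methylation and is encoded on the X chromosome. It had 16.1, 16.2 and 15.9 FPKM at prepuberty, 15.9, 8.08 and 17.2 at puberty, and 19.8, 16.3 and 16.5 at postpuberty. The prepuberty and postpuberty ranges are apart by a narrow margin. KDM1A (chr2:243511391-243574256), the amine oxidase LSD1, had 10.5, 14.0 and 10.6, then 12.8, 15.4 and 13.2, then 13.6, 10.9 and 14.0 FPKM, so that it was highest in Puberty 2. Its paralogue KDM1B (chr20:38652086-38694877) had 5.85, 6.18 and 7.15, then 5.81, 1.33 and 4.09, then 6.80, 8.45 and 4.96 FPKM. Each puberty library was below each prepuberty library for KDM1B, but the highest puberty value (5.81) and the lowest prepuberty value (5.85) nearly met. The other H3K4 demethylases, KDM5A and KDM5B, lay between 4.39 and 6.76 and between 3.82 and 6.63 FPKM outside Puberty 2.

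KDM6A (chrX:43953883-44135150), which removes H3K27 methylation and so opposes Polycomb, had 5.40, 3.41 and 3.73 FPKM at prepuberty, 3.84, 0 and 3.21 at puberty, and 6.36, 4.25 and 4.31 at postpuberty. All 3 postpuberty values were above the 3 of puberty, while prepuberty overlapped with both. KDM6B, with the same substrate, stayed between 2.88 and 4.36 FPKM in all 9 libraries. KDM2A, a CpG-binding H3K36 demethylase, had 10.4, 8.75 and 9.61, then 9.04, 2.63 and 10.4, then 11.3, 8.77 and 9.54 FPKM.

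The steadiest gene of the 41 was KDM3A, an H3K9 demethylase, with 6.01 to 6.77 FPKM in 8 libraries (a coefficient of variation of 3.89%) and 0.164 in Puberty 2. The lowest demethylases were KDM8, KDM2B and KDM3B. KDM8, a JmjC protein with reported hydroxylase activity, had 2.06, 1.90 and 1.76, then 1.77, 0.766 and 2.07, then 2.14, 2.06 and 1.78 FPKM. KDM2B, a CpG-binding subunit of a Polycomb complex, had 1.92, 2.55 and 1.47, then 0.829, 1.04 and 2.01, then 1.77, 1.75 and 1.77 FPKM. KDM3B, the paralogue of KDM3A, had 2.20, 0.852 and 1.07, then 1.38, 0 and 0.410, then 1.70, 0.370 and 1.46 FPKM. In all 3 genes the stages overlapped. KDM4A, KDM4B and KDM4C, which act on H3K9 and H3K36, lay between 3.25 and 5.96, between 5.89 and 9.93 and between 1.83 and 3.32 FPKM outside Puberty 2, and KDM7A between 1.76 and 2.89. Across all 41 genes, the highest of those 8 libraries was at most 2 times the lowest for 30 genes and more than 3 times for 6 (KMT2A, KMT2D, EZH2, SUV39H2, KDM2B and KDM3B).

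The first comparison asks which enzymes change as ewes enter first estrus. With limma on log2(FPKM + 1), no gene of the group was called between prepuberty and puberty (0 of 40; an absolute log2 difference of at least 1 and a Benjamini-Hochberg adjusted p below 0.05), and of all 14238 genes kept 0% were called. At an unadjusted p below 0.05 there were 0 of the 40, against 1.82% of all genes kept. The smallest p belonged to HDAC7, whose log2 difference (puberty minus prepuberty) was -1.04 with a standard error (SE) of 0.53 (limma adjusted p = 0.838), and it became -0.36 with an SE of 0.26 without Puberty 2. KDM1B gave -0.77 with an SE of 0.40. Neither difference was large against the spread between ewes.

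In that comparison 31 of 40 genes (77.5%, beside 63.2% of all genes kept) had a lower mean log2 level at puberty, with a median difference of -0.30, beside -0.14 over all genes kept. For the 16 demethylases the median was -0.56 and 15 were lower. Without Puberty 2 the median of the 40 genes was 0.01, beside 0.02 over all genes, and that of the demethylases 0.01, so the lower levels at puberty rest on 1 library. Libraries of the 2 stages did not overlap for 2 genes, KDM1B and HDAC8, both lower at puberty; this is 5% of the 40, and 5.16% of all genes kept were so separated. Leaving out Puberty 2, these 2 and EZH2 were lower, and KMT2A, KMT2C and HDAC6 higher, in both remaining puberty libraries than in any prepuberty library, 6 of 40 or 15.0%, against a background of 11.7%. EZH2 passed the filter only through the other stages, where it is higher, so its place in this count says nothing; without it there were 5 of 39, or 12.8%. In that fit limma called 0% of all 14209 genes kept and 0 members, and 1.66% of all genes but 0 members had an unadjusted p below 0.05; KMT2C gave 0.41 with an SE of 0.28 and HDAC6 0.30 with an SE of 0.17.

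**Figure D2:**
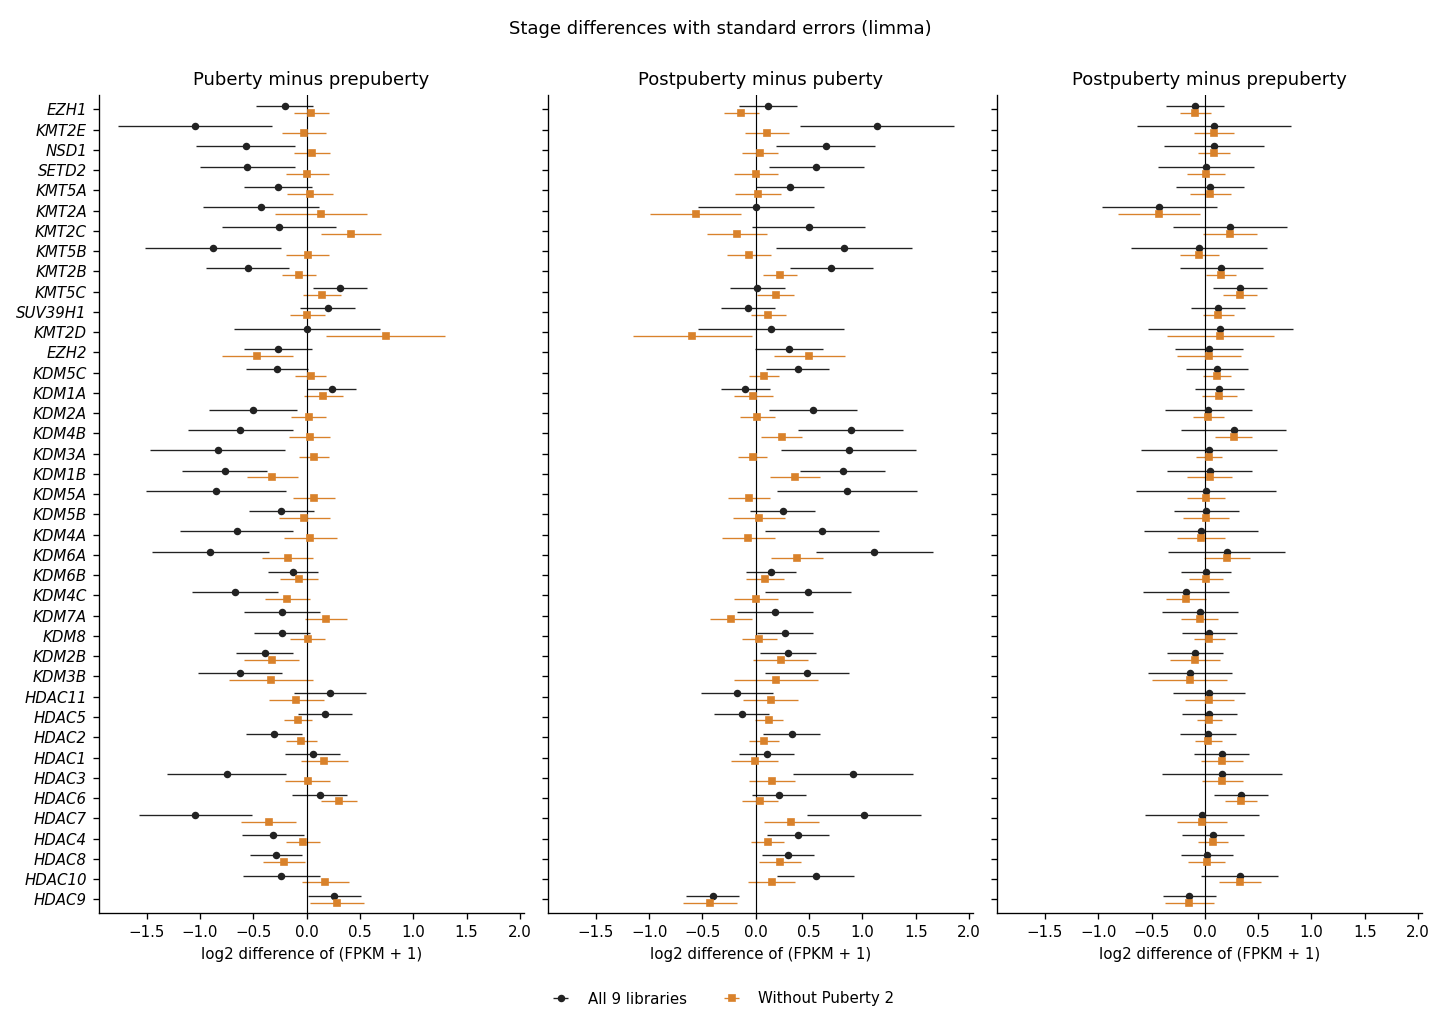
Log2 differences between stages of log2(FPKM + 1) for the 40 genes that passed the filter, from limma with all 9 libraries (black circles) and without Puberty 2 (orange squares); bars are standard errors. Most differences that involve puberty move towards 0 when Puberty 2 is left out, as for KMT2E, from -1.05 to -0.02 against prepuberty.

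Between puberty and postpuberty the limma test again called 0 of 40 genes and 0% of all genes kept, and 0 of 40 had an unadjusted p below 0.05 beside 2.14% of all. The largest log2 differences (postpuberty minus puberty) were those of KMT2E (1.13, SE 0.72), KDM6A (1.11, SE 0.55) and HDAC7 (1.02, SE 0.53), each with a limma adjusted p of 0.780. Without Puberty 2 they were 0.11 (SE 0.21), 0.39 (SE 0.24) and 0.33 (SE 0.26). This comparison and the first share the 3 puberty libraries.

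The median difference was 0.36 for the 40 genes, of which 35 (87.5%) were higher at postpuberty, beside 0.19 for all genes kept, of which 67.6% were higher; without Puberty 2 it was 0.06 for the 40 and 0.03 for all. Stages did not overlap for 5 genes, 12.5% of the 40 against 7.32% of all genes kept. KMT2B, KDM6A, HDAC2 and HDAC4 were higher and HDAC9 lower at postpuberty. With upper-quartile scaling only KDM6A and HDAC9 separated, 2 of 40 against 6.5% of all genes. Without that scaling, all 5 also separated without Puberty 2, along with HDAC5 (higher at postpuberty) and KMT2A and KMT2D (lower). These were 8 of 40 or 20% against a background of 14.1%. HDAC9 was the member with the smallest unadjusted p in that fit, with -0.43 (SE 0.25, limma adjusted p = 1), and with Puberty 2 it was -0.40 (SE 0.25). KDM6A without Puberty 2 rests on 3.84 and 3.21 FPKM against 4.25 to 6.36, of which the highest is Postpuberty 1. In the fit without Puberty 2, 0% of all genes and 0 members were called, and 2.11% of all genes and 0 members had an unadjusted p below 0.05.

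Prepuberty and postpuberty do not involve Puberty 2 except through the shared estimate of spread. limma called 0 of 40 members and 0% of all genes kept, and at an unadjusted p below 0.05 it gave 0 members and 0.815% of all genes; without Puberty 2 these were 0% called, and 0 members and 1.87% of all genes at the unadjusted level. The median difference was 0.04 for the 40 genes and 0.05 for all genes kept, and 30 of 40 (75%, beside 62.1% of all genes) were higher at postpuberty; with the libraries scaled by their upper quartile the split was 20 higher and 20 lower, with a median of -0.0035, and 52.1% of all genes were higher.

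Stages did not overlap for 3 genes, HDAC6, KDM5C and KMT5C, which were all higher at postpuberty; this is 7.5% of the 40 against 4.57% of all genes kept. HDAC6 differed by 0.34 (SE 0.25), or 0.34 with an SE of 0.15 without Puberty 2, when its unadjusted p in limma was 0.0572 and its adjusted p 1. KMT5C differed by 0.33 (SE 0.25, and 0.16 without Puberty 2). KDM5C differed by 0.11 (SE 0.29, and 0.13 without Puberty 2). The smallest two-sided p of an exact permutation test with 3 ewes per stage is 0.1, so a complete separation of 2 stages is a description here. Postpuberty 1 was the highest library for KMT5C (leaving out Puberty 2), KDM5C and HDAC6.

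Postpuberty 1 was the highest of the 8 libraries other than Puberty 2 for 15 of 40 genes (37.5%), beside 19.2% of all genes kept. It was above the median of the other 8 libraries for 32 of the 40 (80%, beside 57.2% of all genes kept), and for 14 of 16 demethylases. The lowest there against their median in the other libraries were EZH2, at 8.23% (0.0480 FPKM), and KMT2A, at 25.7% (1.60 FPKM). Besides its low neuron marker sum, this library had the highest summed level of 4 markers of oligodendrocyte precursors (99.6 FPKM) and of 6 pituitary markers (203 FPKM, of which PRL made up 199.5), and none of the 7 oligodendrocyte markers was below its median in the other libraries. The part of cell mixture in these levels was not tested.

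Puberty 2 was lower for most of these enzymes than the shift of the library as a whole. Taking each gene's level there as a percentage of its median in the other 8 libraries, the median of the 40 genes was 25.7%, and that of all genes kept 56.7%. The level was below 50% for 25 of 40 (62.5%, beside 45.6% of all genes) and below 10% for 10 (25%, beside 14.6% of all genes). KMT2D, KMT5B, KDM5A, KDM6A and KDM3B were listed at 0 there, 12.5% of the 40 beside 7.31% of all genes. By class, the median was 21.5% for methyltransferases, 23.0% for demethylases and 68.0% for deacetylases. Their quartiles overlapped (15.6% to 59.05%, 5.66% to 50.9% and 27.8% to 105%), and the difference between classes was not tested. In summed FPKM, methyltransferases came to 31.2 and demethylases to 37.4 in Puberty 2, below the range of the other 8 libraries, while deacetylases came to 140, inside it. HDAC11 and HDAC5 carried most of that sum: without HDAC11 it was 67.0 FPKM against 78.7 to 93.5 elsewhere, and class I came to 24.3 against 41.2 to 49.5.

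**Figure D3:**
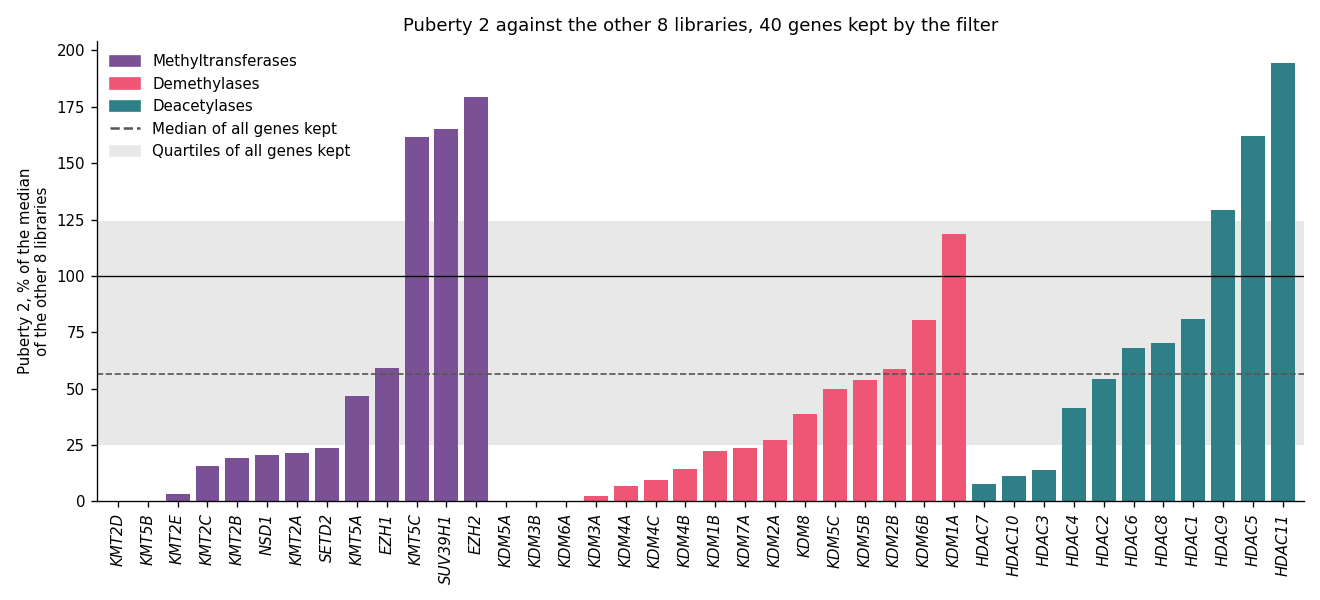
Level of each of the 40 genes in Puberty 2 as a percentage of its median in the other 8 libraries, by class, with the median (56.7%, dashed) and quartiles (grey band) of all genes kept. Genes with no bar are listed at 0 in Puberty 2; HDAC11, at 195%, is the highest.

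A total of 7 genes (17.5% of the 40, beside 31.1% of all genes kept) were above that median in Puberty 2. They were HDAC11 (195%), EZH2 (179%), SUV39H1 (165%), HDAC5 (162%), KMT5C (162%), HDAC9 (129%) and KDM1A (119%). Of these, EZH2 (0.712 FPKM) and HDAC9 (1.38 FPKM) lay within their ranges in the other 8 libraries (0.0480 to 1.13 and 0.613 to 1.78). The other 5 were above all 8. Of KMT2 enzymes, none of the 5 exceeded 21.5%. Long gene spans tended to have the lower percentages: Spearman's rho between span and percentage was -0.25 over the 40 genes and -0.41 over 14203 genes kept. These points share 1 library, so the values are a description. Of 6 endothelial markers, 3 (CLDN5, VWF and ESAM) were highest of the 9 libraries in Puberty 2 and 3 (PECAM1, CDH5 and FLT1) lowest, and CLDN5 made up 624 of their summed 681 FPKM. The part of cell mixture in the levels of this library was not tested.

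The transcripts counted in Puberty 2 also differed. Of the 363 transcripts of these genes, 69 were above 0 there, against 215 to 232 in each other library. For 38 members with 2 or more transcripts, the most abundant transcript was not that of the other 8 libraries for 21 (55.3%) in Puberty 2, beside 45.6% of all genes with 2 or more transcripts; in the other libraries this was so for 6 to 12 of the 38. These counts include the 5 members with no transcript above 0 in Puberty 2, which have no most abundant one. Among genes with a transcript above 0 there, it was so for 21 of 33 members (63.6%) and for 49.1% of all genes.

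**Figure D4:**
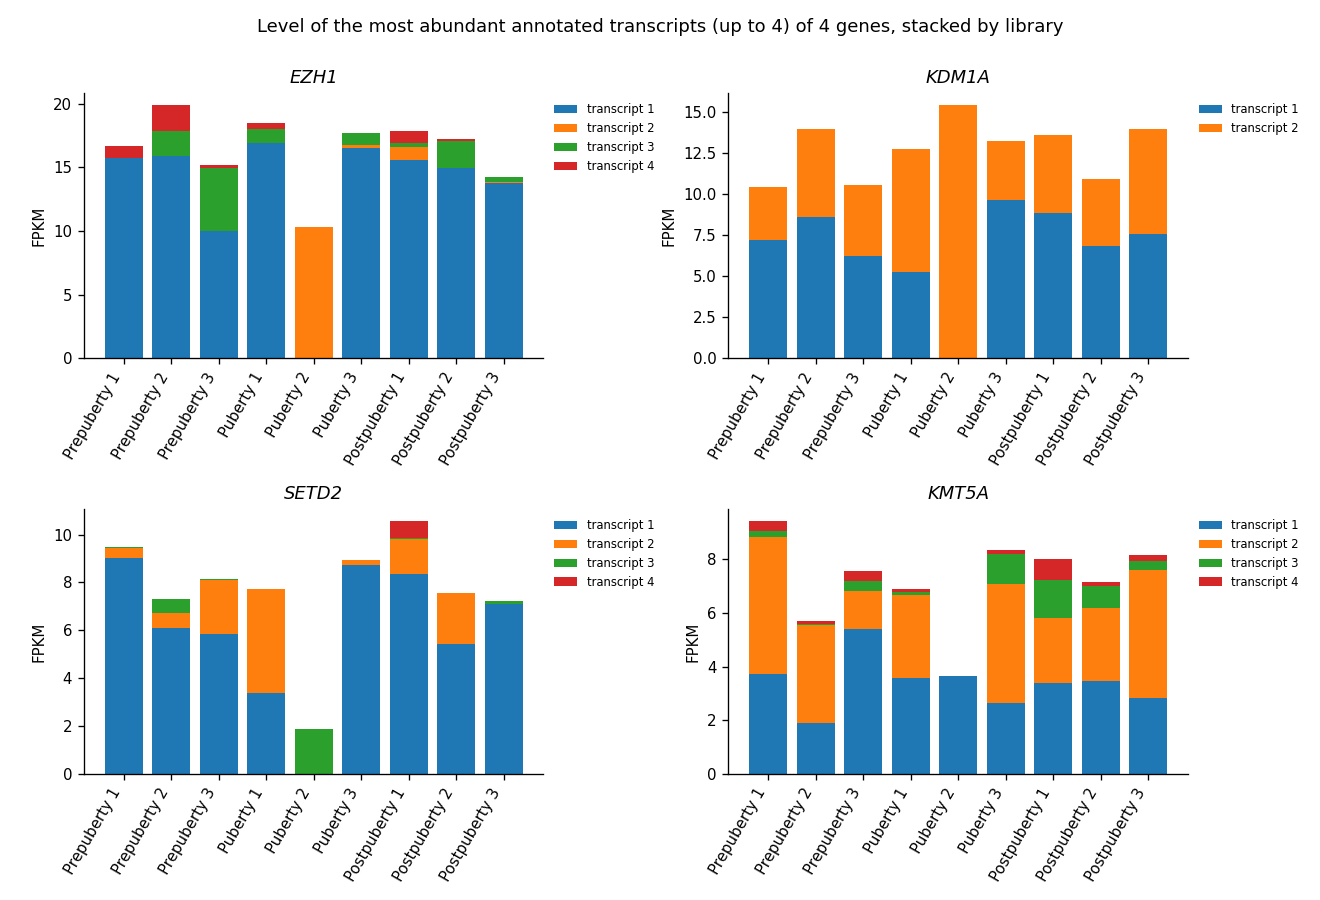
FPKM of the most abundant annotated transcripts (up to 4 per gene, numbered by abundance over all libraries) of EZH1, KDM1A, SETD2 and KMT5A, stacked for each of the 9 libraries. In Puberty 2 each of these genes is drawn as 1 transcript, which for EZH1 and SETD2 is one that had at most 1.06 and 0.597 FPKM in the other libraries.

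EZH1 is an example. Its main transcript, XM_027974486.2, had 10.0 to 16.9 FPKM in the other 8 libraries and 0 in Puberty 2, where the whole 10.3 FPKM was given to XM_042255982.1, which was at 1.06 or less elsewhere. For KDM1A, XM_012152442.4 had 5.29 to 9.66 FPKM in 8 libraries and 0 in Puberty 2, and XM_012152425.4 had 15.4 there and 3.22 to 7.48 elsewhere. The gene sum of KDM1A, 15.4 FPKM there and 10.5 to 14.0 elsewhere, differed less than its split between transcripts. For SETD2, XM_042236343.2 had 1.87 FPKM in Puberty 2 and at most 0.597 in the other libraries. HDAC11, HDAC2 and HDAC3 have 1 annotated transcript each, so that their levels do not depend on such a split.

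HDAC11 was also high in 2 libraries of different stages. Apart from Puberty 2, HDAC3, HDAC8, HDAC4 and HDAC11 were higher in both Prepuberty 2 and Postpuberty 2 than in the other 6 libraries, 10% of the 40 genes beside 13.8% of all genes kept. KMT2D, KDM3A and KDM2A were lower in both, 7.5% beside 9.87%, so the group showed this pattern no more often than genes at large. For HDAC11 the values were 53.1 and 54.2 FPKM against at most 38.4. The summed level of 7 oligodendrocyte markers was lowest in these libraries, 6315 and 6505 FPKM against 8869 to 14483 in the other 7. All 7 markers were below their median in the other libraries in Prepuberty 2, but 2 of 7 were in Postpuberty 2, where MBP (1112 FPKM) was lowest of the 9. All 7 were also below their median in Puberty 1 and Postpuberty 3, where HDAC11 was 37.5 and 38.4 FPKM. Other lists moved with these 2 libraries as well. The astrocyte sum was lowest there, at 3635 and 3528 FPKM against 4164 to 7373, with 3 of 7 markers below their median in each. Of the microglia markers 7 and 8 of 8, and of the endothelial markers 6 and 5 of 6, were below their median, as were 7 of 8 and 5 of 6 in Puberty 1. Of 9 neuron markers, 1 was below its median in Prepuberty 2 and 1 in Postpuberty 2. SYP (197 and 165 FPKM against at most 126) and GAP43 (171 and 151 against at most 94.4) were highest in these libraries. For 4 of the 9, Postpuberty 3 was highest, as for the neuron sum (1958 FPKM against 1847 and 1755). The part of cell mixture in these levels was not tested.

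**Figure D5:**
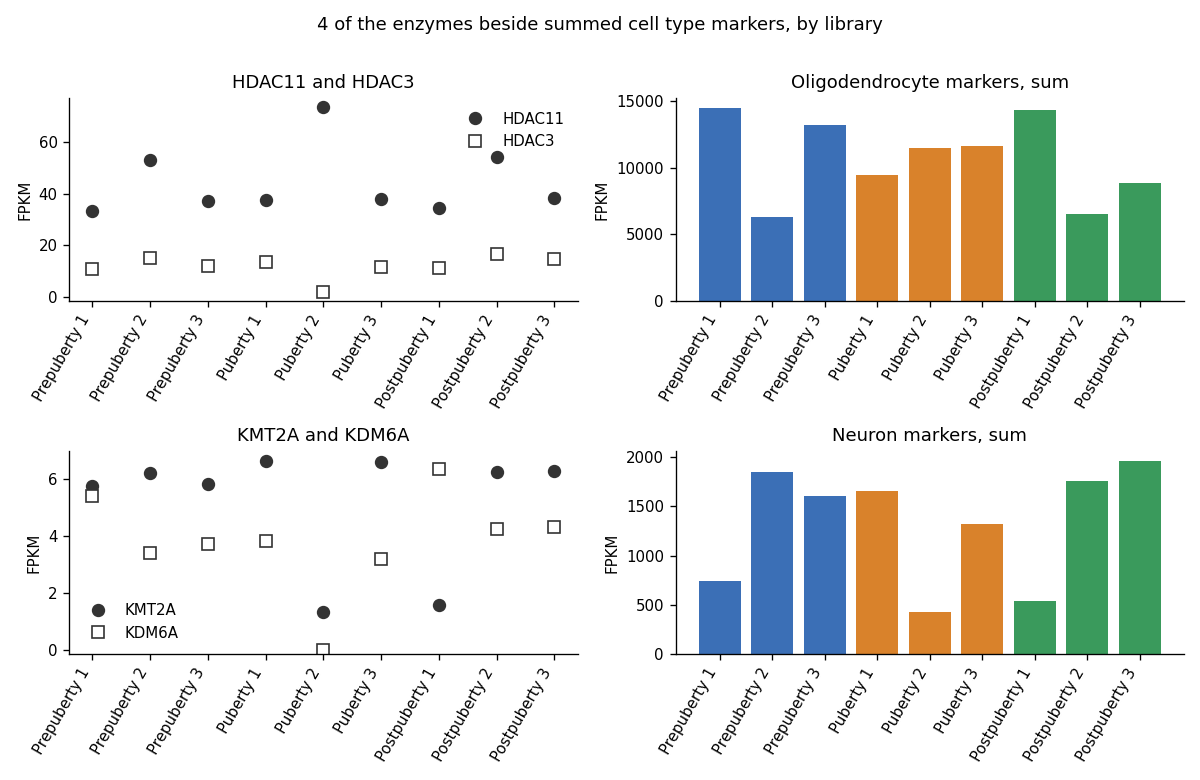
HDAC11 and HDAC3 (upper left) and KMT2A and KDM6A (lower left) in FPKM in each library, beside the summed FPKM of 7 oligodendrocyte markers and of 9 neuron markers, coloured by stage (blue prepuberty, orange puberty, green postpuberty). Prepuberty 2 and Postpuberty 2 have the lowest oligodendrocyte sums, in Postpuberty 2 through MBP (1112 FPKM) with 5 of the other 6 markers not below their median elsewhere, and KMT2A is low in Puberty 2 and Postpuberty 1, the 2 libraries with the lowest neuron sums, but not in Prepuberty 1 (5.77 FPKM), which has the third lowest (743 FPKM).

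The partners and relatives of these enzymes were taken from 7 lists. None of the genes kept was called by limma in any comparison: 0 of 30 Polycomb partners, 0 of 14 partners of the KMT2 complexes (COMPASS), 0 of 32 partners in HDAC corepressor complexes, 0 of 21 other lysine methyltransferases, 0 of 8 other demethylases, 0 of 17 acetyltransferases and 0 of 7 sirtuins. JARID2 was in both the Polycomb list and that of other demethylases, and was counted once when the lists were pooled. At an unadjusted p below 0.05, CREBBP passed between prepuberty and puberty, SETDB1, JMJD1C and SIRT7 between puberty and postpuberty, and SUDS3 and SIRT7 between prepuberty and postpuberty. Over the 128 genes of the lists these are 0.781%, 2.34% and 1.56%, beside 1.82%, 2.14% and 0.815% of all genes kept. Without Puberty 2 they were none, SETDB1 and JMJD1C, and SUDS3, NCOR1 and SIRT7, or 0%, 1.56% and 2.34% beside 1.66%, 2.11% and 1.87%. SIRT7 had 0.179, 0.0251 and 0.170, then 0.0768, 0 and 0.659, then 1.35, 0.512 and 0.895 FPKM. It passed the filter only through postpuberty, where it is higher, so its place in these counts says nothing. The names of passing genes, and those that follow, were chosen after their values were seen.

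Of the Polycomb partners, EED, the subunit that reads H3K27 methylation, was higher in each puberty library (5.17, 5.10 and 4.24 FPKM) than in any prepuberty library (4.19, 3.35 and 3.41). PCGF1 (higher at puberty) and PHF1 (lower) also separated these stages, 3 of 30 or 10.0%; over all lists it was 6 of 128 or 4.69%, beside the background of 5.16% given above. SUZ12, the scaffold of the same complex, had 1.203, 0 and 1.10 FPKM at puberty and 1.31, 1.42 and 1.56 at postpuberty, as 1 of 4 Polycomb partners (of 30) whose libraries did not overlap between these stages and were higher at postpuberty; over all lists 17 of 128 genes (13.3%) did not overlap, where the background was 7.32%. Of the 8 other demethylases, 4 (HR, JMJD1C, RIOX1 and RIOX2) were higher in each postpuberty library than in any puberty library, with and without Puberty 2 (backgrounds of 7.32% and 14.1% of all genes kept). JMJD1C, a relative of KDM3A, had 5.80, 2.95 and 2.88, then 3.61, 0 and 1.70, then 8.57, 4.72 and 6.82 FPKM. SETDB1, an H3K9 methyltransferase of silenced repeats, was lowest at puberty, with 3.31, 4.43 and 3.81, then 2.63, 0.770 and 3.21, then 5.23, 5.35 and 4.81 FPKM; its 3 stages did not overlap.

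These lists were also compared in Puberty 2. The median percentage of the other 8 libraries was 61.8% for Polycomb partners, 54.5% for COMPASS partners, 40.7% for HDAC partners, 37.8% for acetyltransferases, 38.4% for sirtuins, 37.2% for other lysine methyltransferases and 14.3% for other demethylases. The last, a list that includes the Polycomb partner JARID2 (7.96%), is below the 23.0% of the 16 KDM genes. COMPASS and Polycomb partners were near the 56.7% of all genes.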

How the data were processed

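Poly-A RNA of 9 hypothalami was sequenced by the authors, who trimmed reads with Trimmomatic, aligned them to ARS-UI_Ramb_v3.0 with HISAT2 and quantified transcripts with StringTie. The deposited values are FPKM for each transcript, although the table is described as raw counts (0.000165% of values above 0 are whole within 1e-06). The test for counts that the study used could not be fitted to them. The study itself reported differentially expressed mRNAs between these stages. The absence of calls in the main fit here describes gene sums of FPKM under limma, and does not test the calls of the study. RefSeq symbols were found for 76682 of 76684 NM and XM transcripts, and FPKM was summed per gene. limma 3.58.1 (R 4.3.3) was run on log2(FPKM + 1) with a variance trend, all 9 libraries in 1 fit and a filter of mean FPKM of at least 0.5 in 1 stage or more, which kept 14238 genes. Adjusted p-values (Benjamini and Hochberg) cover all genes kept. Without counts no counting interval is given; precision is set by 3 ewes per stage.

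The genes, the marker and partner lists and the tests were chosen with earlier results of these data known. Every gene of the rule is accounted for. Values per library are given for genes past a call, genes whose stages do not overlap, the 3 highest and 3 lowest of each class and EZH1, EZH2, KMT2A, KMT2C, HDAC1, HDAC2 and HDAC3; others are given where a level is described. Of the 41 genes, 6 overlap another protein-coding gene (KMT2E, SUV39H2, NSD1, KDM4C, HDAC4 and HDAC7), and reads of overlapping genes may be split between them; use of strand is not given in the sources used here. The fit was tested on simulated data. Alternatives covered the pseudocount, filter, scaling, library weights, the replicate number, the variance model and leaving out each library. Python 3.11.15 with pandas 2.3.3, numpy 2.4.6, scipy 1.17.1 and matplotlib 3.10.9 was used for sums and plots.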

Additional observations from a re-analysis of the deposited data

How the results depend on the processing

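In each comparison limma called 0 genes of the group under every alternative run, including a pseudocount of 0.1 FPKM, no filter, a minimum of 2 FPKM, upper-quartile and quantile scaling, library weights, no fold minimum and each library left out. With the replicate number as a block (replicate block) 0 were called in each comparison as well. Over all genes tested, library weights called 4, 1 and 0 genes in the 3 comparisons, in the order given above. Leaving out the 3 libraries with the lowest neuron markers called 1, 0 and 1, and the other alternatives called 0. The numbers do not pair ewes: of 9 same-number pairs, 2 had a correlation of deviations over 0.1 (range -0.315 to 0.515), and 3 of 9 libraries correlated best with their own number. Of 120 differences (40 genes in 3 comparisons, none called), 77 changed sign under 1 alternative or more.

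Counts of genes whose stages do not overlap moved more. Under upper-quartile scaling there was 1 between prepuberty and puberty (HDAC8; 5.78% of all genes), 2 between puberty and postpuberty (KDM6A and HDAC9; 6.5%) and 2 between prepuberty and postpuberty (KMT5C and HDAC6; 4.07%). Leaving out each library in turn gave 2 to 9, 5 to 12 and 3 to 7 genes, with 5.16% to 15.8%, 7.32% to 20.4% and 4.57% to 17.3% of all genes. Leaving out the 3 libraries with the lowest neuron markers, an alternative added after seeing the data, gave 9, 15 and 13 genes, with 25.3%, 27.8% and 22.3% of all genes; the smaller groups alone raise such counts. Low levels limit EZH2, SUV39H2, KDM3B and HDAC9 most, since they lie near 1 FPKM or below.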
